A study of Mus musculus with 12 samples.

Results

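The 59 transcripts described here are long noncoding RNAs (lncRNAs) whose level was lower in Ebf2-EGFP+ than in Ebf2-EGFP- cells of the embryonic mouse cortex at 1 or more of 3 stages. They were chosen on the measured values themselves, from 200 lncRNA transcripts. The deposited table of lncRNAs holds those that the authors reported as differential, not all that are expressed. The table of coding genes likewise holds the 4859 that the authors selected as differing between the populations. Every share of all coding genes given below is a share of these. For each stage the mean of the 2 Ebf2-EGFP+ libraries plus 1 was divided by the mean of the 2 Ebf2-EGFP- libraries plus 1, in FPKM (fragments scaled to the length of the transcript and to the number of mapped fragments). A transcript counted as enriched at a stage when this ratio was at most 0.5 and its Ebf2-EGFP- mean was above 1 FPKM. In all, 64 transcripts met this at some stage, and 5 of them were dropped because at another stage the ratio was at least 2 with an Ebf2-EGFP+ mean above 1 FPKM. Those 5 were E330013P04Rik, 9930014A18Rik, RP23-326H18.1, 9630028B13Rik and RP24-166N8.8. The 59 that remained carry 55 gene symbols, since Six3os1, Dlx6os1, Gm3892 and 9130024F11Rik have 2 transcripts each. Because the selection used the population difference, that difference is described here without a test. Changes between stages were tested, but they use the same values, so a change is partly built in where the rule was met at 1 end of an interval and not at the other. Where its direction is the one that the rule favours, it is given with its standard error and without a p-value.

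The study sorted cortical cells of mouse embryos that carry an EGFP reporter driven by a bacterial artificial chromosome with the Ebf2 gene, strain Tg(Ebf2-EGFP)FB58Gsat. Cerebral cortex was taken from embryos of stages E11.5, E13.5 or E15.5, and fluorescence-activated cell sorting gave an Ebf2-EGFP+ and an Ebf2-EGFP- population at each stage, with 2 RNA sequencing libraries for each of the 6 groups and 12 in all. The question addressed is which RNAs set the early-born neurons that express the reporter apart from other cortical cells as neurogenesis proceeds. The reporter is a transgene and its fluorescence can outlast transcription, and the Ebf2-EGFP- population is every other sorted cortical cell, a mixture whose make-up is not given by the labels. Embryos were pooled, and the study's methods call the 2 libraries of a group biological replicates, so the p-values measure the spread between these libraries. In bulk RNA, fewer cells of a type and less RNA per cell cannot be told apart.

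Long noncoding RNAs are transcripts longer than typical small RNAs that carry no long protein-coding frame. Many are spliced and polyadenylated like messenger RNAs, are less abundant than these, and differ more between cell types. A large share of those in the developing brain start beside, or run antisense to, genes for transcription factors that specify neural cell types.

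Summed markers of Cajal-Retzius cells and of radial glia followed the labels of the sorted populations. Ndnf alone of the 9 Cajal-Retzius genes was not higher in Ebf2-EGFP+ cells at E11.5 (mean 1.04 FPKM, against 1.44 in Ebf2-EGFP- cells). Intermediate progenitor genes at E11.5, and cortical plate genes at E11.5 and E13.5, summed higher in Ebf2-EGFP+ libraries, as given further below. The gene named as most abundant in a list has the highest mean over all 12 libraries, not in each group. At E11.5 Nhlh2 exceeded Reln in Ebf2-EGFP+ cells (means 95.2 and 76.1 FPKM), and Lhx5 exceeded it in Ebf2-EGFP- cells (3.77 and 2.89). The 9 Cajal-Retzius cell markers (9 of 9 in the table of coding genes, Reln the most abundant) summed to 14.8 and 13.4 FPKM in Ebf2-EGFP- against 426 and 378 in Ebf2-EGFP+ libraries of E11.5, to 13.1 and 13.47 against 205 and 257 on E13.5 and to 24.2 and 16.7 against 582 and 1226 on E15.5. The 8 radial glia markers (8 of 8 in the table, Vim the most abundant) summed to 1624 and 1341 FPKM in Ebf2-EGFP- against 430 and 406 in Ebf2-EGFP+ libraries of E11.5, to 1575 and 1053 against 222 and 201 on E13.5 and to 817 and 456 against 152 and 89 on E15.5. Within groups, the Pearson correlation of log2(FPKM+1) between the 2 libraries across all 200 lncRNAs lay between 0.935 and 0.968; this is a correlation across transcripts, which are not independent replicates.

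The 59 enriched transcripts had a median ratio of 0.419, 0.435 and 0.442 at the successive stages, where the median over all 200 lncRNAs was 1.21, 1 and 0.949. The ratio was met by 41 of them on E11.5, by 36 on E13.5 and by 32 on E15.5. By number of stages, 17 met it at all 3 stages, 16 at 2 stages and 26 at 1 stage. Their median mean level in Ebf2-EGFP- cells was 5.03, 3.51 and 3.05 FPKM at the 3 stages, and in Ebf2-EGFP+ cells 1.10, 0.880 and 0.563 FPKM. Summed over the 59, the mean FPKM was 594, 526 and 635 in Ebf2-EGFP- cells and 210, 155 and 246 in Ebf2-EGFP+ cells. These sums were 68.0% and 62.5% of the FPKM of the lncRNA table in the E11.5 Ebf2-EGFP- libraries, 57.5% and 57% in those of E13.5, and 54.8% and 47.5% in those of E15.5. In the Ebf2-EGFP+ libraries they were 25.6% and 25.2%, 21.8% and 18.4%, and 26.6% and 24.1%. A few abundant transcripts weigh on such sums. Gm26917, Pantr1, Dlx1as, Gm17750 and H19 had the highest means over all Ebf2-EGFP- libraries, though others ranked above some of them in single libraries. These 5 made up 46.5% and 39.5% of the sum in the E11.5, 30.8% and 45.1% in the E13.5 and 60.9% and 59.2% in the E15.5 Ebf2-EGFP- libraries. Their shares of the sum in the Ebf2-EGFP+ libraries were 35.4% and 35.6%, 32.8% and 39.5%, and 75.8% and 71.1%.

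Non-overlap of the libraries was counted from the same values that the rule used, so it is no independent evidence, and where the ratio was met it is nearly set by the rule. The lower of the Ebf2-EGFP- pair exceeded the higher of the Ebf2-EGFP+ pair for 47 of the 59 on E11.5 (37.5% of all 200 lncRNAs), for 50 on E13.5 (40% of all 200) and for 51 on E15.5 (44.5% of all 200). After the libraries were rescaled by median-of-ratios size factors the counts were 45, 49 and 46, where all 200 gave 69, 73 and 75. Those size factors, here and below, came from coding genes of the table detected in every library. The rescaling therefore rests on genes selected as differing between the populations. Among transcripts that met the ratio at the stage itself, 40 of 41, 35 of 36 and 31 of 32 had non-overlapping libraries. The exceptions were 4933404O12Rik (E11.5), Gm26917 (E13.5) and Gm28872 (E15.5). All 17 transcripts enriched at every stage were non-overlapping in this sense at each stage, with and without rescaling.

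Every enriched transcript falls into 1 of 7 combinations of stages. The 17 enriched at all 3 stages were Dlx1as, both transcripts of Dlx6os1, Sox2ot, Gm5607, Gm13111, Gm14204, Pantr1, H19, Snhg18, 1190002F15Rik, 5430405H02Rik, AU020206, AW047730, Gm17167 and both transcripts of Gm3892. A further 9 were enriched at E11.5 and E13.5: E530001K10Rik, 2810468N07Rik, 2810408I11Rik, Gm29247, Gm14230, Gm26917, Gm20421, 2010204K13Rik and Gm4524. The 14 enriched at E11.5 alone were both transcripts of Six3os1, AI606473, Gm29478, 2610035F20Rik, Gm17750, Snhg4, Dleu2, RP23-169H9.3, RP23-110C17.2, 4933404O12Rik, Gm26694, 2700038G22Rik and D030046N08Rik. The 6 enriched at E13.5 and E15.5 were A830082K12Rik, AI504432, AI849053, Gm27202, Gm29260 and 2700033N17Rik. At E13.5 alone there were 4, namely 2610316D01Rik, 4933431K14Rik, 1110015O18Rik and Gm15867. The 8 enriched at E15.5 alone were both transcripts of 9130024F11Rik, A930024E05Rik, RP23-253I14.3, Gm27197, E130006D01Rik, Gm15658 and Gm20646. Gm28872 was enriched at E11.5 and E15.5, and all 4 of its Ebf2-EGFP+ libraries at those stages were listed at 0, as was 1 of its E15.5 Ebf2-EGFP- libraries, where the other stood at 2.89 FPKM.

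**Figure D1:**
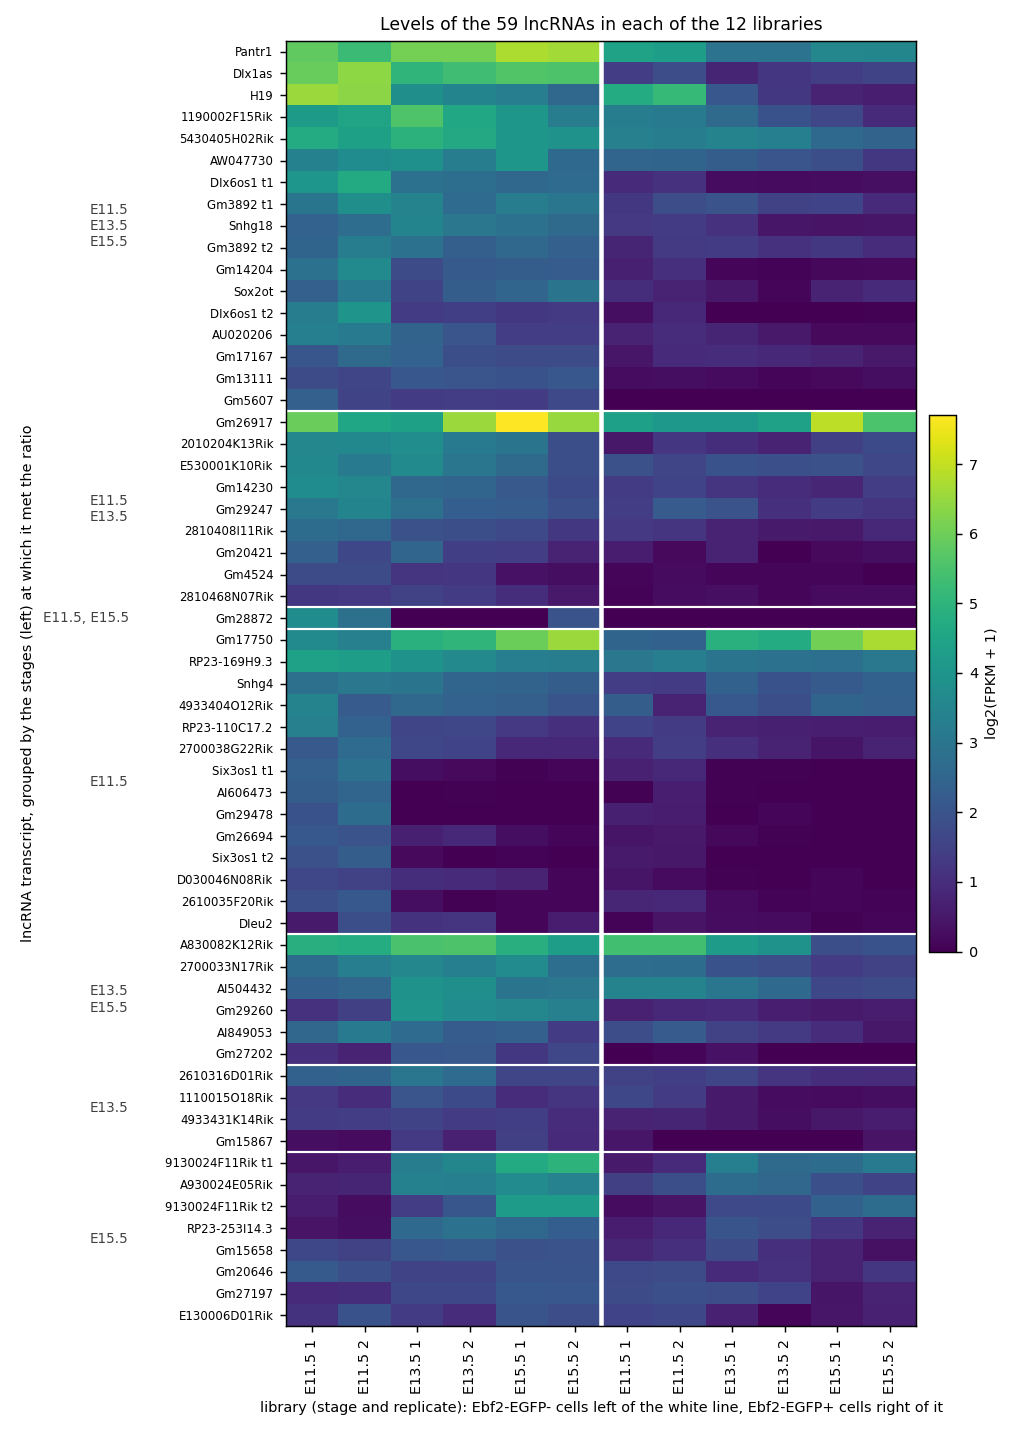
Level of each of the 59 enriched transcripts (one per line, grouped by the stages at which the ratio was met) in the 12 libraries, Ebf2-EGFP- left and Ebf2-EGFP+ right of the white line, as log2(FPKM+1). The 17 transcripts enriched at all 3 stages are higher in every Ebf2-EGFP- library than in both Ebf2-EGFP+ libraries of the same stage.

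Values near the ratio limit show how the selection ends. Just inside were Gm15867 at E13.5 (ratio 0.484, means 1.07 and 0 FPKM in Ebf2-EGFP- and Ebf2-EGFP+ cells), 4933431K14Rik at E13.5 (0.489, 1.74 and 0.339 FPKM) and Gm20646 at E15.5 (0.498, 2.98 and 0.982 FPKM). Just outside were Gm26793 at E11.5 (0.505, 1.17 and 0.0925 FPKM), C330006A16Rik at E11.5 (0.519, 9.15 and 4.26 FPKM) and Gm13375 at E15.5 (0.521, 11.1 and 5.31 FPKM). Several of the 59 left the selection without a single library: 4933404O12Rik, Gm17750 and RP23-110C17.2 without E11.5 Ebf2-EGFP- replicate 1, 2700038G22Rik, AI504432 and Dleu2 without E11.5 Ebf2-EGFP- replicate 2, A930024E05Rik and Dleu2 without E11.5 Ebf2-EGFP+ replicate 1, 4933404O12Rik without E11.5 Ebf2-EGFP+ replicate 2, 4933431K14Rik and Gm15867 without E13.5 Ebf2-EGFP- replicate 1, 4933431K14Rik without E13.5 Ebf2-EGFP+ replicate 2, and Gm20646 without E15.5 Ebf2-EGFP+ replicate 1. With scaling, 2610035F20Rik, 4933404O12Rik, 4933431K14Rik, AI504432, Dleu2, Gm15867, Gm17750, Gm20646 and RP23-169H9.3 left it, and with 0.1 in place of 1 added to both means A930024E05Rik, AI504432 and Gm27197 did. With the limit applied to each library, 12 left it: 2700038G22Rik, 4933404O12Rik, 4933431K14Rik, AI849053, AW047730, Dleu2, Gm15867, Gm17750, Gm20646, Gm26917, Gm29247 and RP23-110C17.2, of which AW047730 is 1 of the 17 enriched at all 3 stages. With an Ebf2-EGFP- mean above 5 FPKM, 24 left it. Of the 59, AI504432 came nearest to the limit for dropping, with a ratio of 1.97 at E11.5.

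In the GENCODE annotation, 58 of the 59 transcripts could be matched by transcript identifier, and Snhg4 could not. By annotated type, 25 were intergenic lncRNAs, 17 antisense, 6 processed transcripts, 3 retained introns, 3 unconfirmed transcripts (type TEC), 3 sense-overlapping and 1 from a bidirectional promoter. Their spliced length had a median of 1551.5 bases (158 to 7420), against 1877.5 bases for the other lncRNAs, and 6 had a single exon. A protein-coding gene overlapped 26 of them, on the opposite strand for 22 and on the same strand for 7. Whether the libraries kept the strand is not stated, so reads of such a transcript and of its overlapping partner cannot be told apart. Start sites of 12 lay within 5 kb of a coding gene that is transcribed in the opposite direction, head to head.

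Dlx1as and Dlx6os1 lie at the paired genes Dlx1 and Dlx2, and Dlx5 and Dlx6, which encode homeodomain transcription factors of ventral forebrain progenitors and GABAergic interneurons. Dlx1as stood at 59.6 and 82.4 FPKM in the E11.5 Ebf2-EGFP- pair of libraries and 1.63 and 2.52 in the Ebf2-EGFP+ pair, then 32 and 39.7 against 0.753 and 1.31 on E13.5 and 47.6 and 45.6 against 1.62 and 2 on E15.5. Its ratio of 0.0427 at E11.5 was the lowest of the 59 at any stage. In Ebf2-EGFP- cells Dlx1as fell between E11.5 and E13.5 by 0.96 ± 0.25 (adjusted p 0.0120) on the log2 scale, with both later libraries under both earlier ones. That call was lost without E11.5 Ebf2-EGFP- replicate 2, where the log2 change was -0.73, and without E13.5 Ebf2-EGFP- replicate 1, where it was -0.80. Changes are given throughout as log2 of FPKM plus 1, with the standard error after ±, and are called at an adjusted p under 0.05 in limma, a linear model fitted across all transcripts. The Dlx1as transcript is antisense to Dlx1, and its promoter region on chr2:71537842-71538141, minus strand of GRCm38.p6, runs from 250 bases before to 50 bases after the annotated start. It holds the homeodomain core TAATTA, shown in capitals, and this sequence is from the RefSeq genome assembly.
Dlx1as: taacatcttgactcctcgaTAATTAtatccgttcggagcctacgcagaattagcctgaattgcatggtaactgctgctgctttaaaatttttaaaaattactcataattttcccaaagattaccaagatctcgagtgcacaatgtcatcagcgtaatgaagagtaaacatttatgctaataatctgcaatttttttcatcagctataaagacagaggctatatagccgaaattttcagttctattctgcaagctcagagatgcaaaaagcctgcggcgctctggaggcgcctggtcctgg

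The more abundant Dlx6os1 transcript, antisense to Dlx6, was measured at 15.46 and 25.1 FPKM in the E11.5 Ebf2-EGFP- pair of libraries and 0.930 and 1.16 in the Ebf2-EGFP+ pair, then 6.38 and 5.82 against 0.193 and 0.157 on E13.5 and 5.07 and 5.52 against 0.192 and 0.237 on E15.5. It fell in Ebf2-EGFP- cells by 1.55 ± 0.21 (adjusted p 2.16e-04) between E11.5 and E13.5 and by 1.72 ± 0.21 (adjusted p 5.71e-05) between E11.5 and E15.5, with no overlap between the libraries of the stages. The other Dlx6os1 transcript fell by 2.34 ± 0.25 (adjusted p 1.70e-05) over the whole interval. All 4 neighbouring Dlx genes were lower in Ebf2-EGFP+ cells at all 3 stages. Dlx1 had 29.1 and 42.8 FPKM in the E11.5 Ebf2-EGFP- pair of libraries and 1.196 and 1.67 in the Ebf2-EGFP+ pair, then 8.16 and 9.48 against 0.170 and 0.233 on E13.5 and 15.48 and 11.9 against 0.214 and 0.393 on E15.5, which gave log2 differences (Ebf2-EGFP+ minus Ebf2-EGFP-) of -3.91 ± 0.21, -3.03 ± 0.21 and -3.49 ± 0.21. For Dlx2, 5517 bases from Dlx1as, the differences were -4.26 ± 0.19, -3.22 ± 0.19 and -3.15 ± 0.19. They were -2.96 ± 0.23, -2.74 ± 0.23 and -2.72 ± 0.23 for Dlx5 and -1.83 ± 0.13, -1.32 ± 0.13 and -0.99 ± 0.13 for Dlx6.

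Sox2ot overlaps Sox2, a transcription factor gene of neural stem and progenitor cells, on the same strand. It stood at 4.16 and 8.25 FPKM in the E11.5 Ebf2-EGFP- pair of libraries and 1 and 0.708 in the Ebf2-EGFP+ pair, then 1.98 and 3.84 against 0.420 and 0.101 on E13.5 and 4.64 and 6.82 against 0.697 and 0.876 on E15.5. The ratio was 0.258, 0.322 and 0.265 at the 3 stages. Sox2 itself was lower in Ebf2-EGFP+ cells, with log2 differences of -3.57 ± 0.43, -3.82 ± 0.43 and -3.41 ± 0.43. An exon of the measured Sox2ot transcript holds the annotated microRNA mmu-miR-1897-3p on chr3:34638511-34638532, plus strand of GRCm38.p6. MicroRNAs are short RNAs cut from longer transcripts that pair with messenger RNAs through their seed, bases 2 to 8, shown in capitals. Mature microRNAs were not measured, and the sequences given for them are from RefSeq.
mmu-miR-1897-3p: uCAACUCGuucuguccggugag

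Further transcripts lie beside coding genes with the same direction, and they were picked after their values were seen. Gm5607, now named Sox1ot, overlaps Sox1 on the same strand and stood at 4.17 and 1.99 FPKM in the E11.5, 1.58 and 1.65 in the E13.5 and 1.56 and 2.23 in the E15.5 Ebf2-EGFP- libraries, against 0.00449 and 0.00436, 0.00681 and 0.00467, and 0.00419 and 0.00431 in the Ebf2-EGFP+ libraries. Sox1 differed by -3.38 ± 0.27, -3.47 ± 0.27 and -3.23 ± 0.27. Gm20421 overlaps Hes5, a Notch target gene of radial glia, which differed by -3.50 ± 0.53, -3.88 ± 0.53 and -2.39 ± 0.53. 2810468N07Rik runs opposite to Sox8, which differed by -1.91 ± 0.23, -2.55 ± 0.23 and -1.90 ± 0.23. Gm14204 starts 44 bases from Slc32a1, the gene for the vesicular transporter of the transmitter GABA. Its level was 6.55 and 11.47 FPKM in the E11.5 Ebf2-EGFP- pair of libraries and 0.588 and 1.11 in the Ebf2-EGFP+ pair, then 2.49 and 3.55 against 0.0754 and 0.0546 on E13.5 and 3.80 and 3.68 against 0.131 and 0.157 on E15.5, and Slc32a1 differed by -2.34 ± 0.23, -2.47 ± 0.23 and -2.74 ± 0.23.

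Gm13111 and Gm27202 lie 359 bases apart on opposite strands near Prdm16, which encodes a zinc finger regulator of radial glia, and were also picked after their values were seen. Gm13111 starts 703 bases from Prdm16, head to head, and stood at 2.46 and 2.06 FPKM in the E11.5 Ebf2-EGFP- pair of libraries and 0.198 and 0.210 in the Ebf2-EGFP+ pair, then 3.29 and 3.12 against 0.161 and 0.0845 on E13.5 and 2.84 and 3.26 against 0.155 and 0.223 on E15.5. Gm27202 stood at 1.09 and 0.672 FPKM in the E11.5, 3.27 and 3.44 in the E13.5 and 1.38 and 2.13 in the E15.5 Ebf2-EGFP- libraries, and in Ebf2-EGFP- cells it rose between E11.5 and E13.5 by 1.22 ± 0.18, with both later libraries above both earlier ones. Prdm16 differed between the populations by -2.45 ± 0.18, -2.91 ± 0.18 and -2.28 ± 0.18. The promoter regions of both hold TAATTA, at chr4:154637326-154637625 on the plus strand and chr4:154645652-154645951 on the minus strand of GRCm38.p6.
Gm13111: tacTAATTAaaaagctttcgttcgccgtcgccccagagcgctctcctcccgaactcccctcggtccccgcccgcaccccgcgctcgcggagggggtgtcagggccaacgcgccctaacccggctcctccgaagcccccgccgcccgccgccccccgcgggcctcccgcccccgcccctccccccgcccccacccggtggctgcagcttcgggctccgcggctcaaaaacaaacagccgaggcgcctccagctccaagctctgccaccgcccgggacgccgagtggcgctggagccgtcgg
Gm27202: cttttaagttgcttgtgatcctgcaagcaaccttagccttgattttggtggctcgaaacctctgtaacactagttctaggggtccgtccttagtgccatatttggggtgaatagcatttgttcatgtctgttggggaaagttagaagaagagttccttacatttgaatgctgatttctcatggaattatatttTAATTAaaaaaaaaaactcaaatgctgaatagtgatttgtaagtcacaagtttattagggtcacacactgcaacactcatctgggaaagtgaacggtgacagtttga

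Pantr1 starts 2640 bases from Pou3f3, head to head, a POU-domain transcription factor gene of cortical progenitors and upper-layer neurons. It stood at 54.9 and 37.1 FPKM in the E11.5 Ebf2-EGFP- pair of libraries and 20.8 and 18.8 in the Ebf2-EGFP+ pair, then 67.1 and 67 against 6.59 and 6.62 on E13.5 and 107 and 98.6 against 10.8 and 10.5 on E15.5. In Ebf2-EGFP- cells it rose between E11.5 and E15.5 by 1.17 ± 0.23 (adjusted p 0.00116), with both E15.5 libraries above both E11.5 libraries. In Ebf2-EGFP+ cells it fell by 0.83 ± 0.23 (adjusted p 0.0121) over the same interval. The fall was no longer called without E11.5 Ebf2-EGFP+ replicate 1 (log2 change -0.76), E11.5 Ebf2-EGFP+ replicate 2 (-0.91) or E15.5 Ebf2-EGFP+ replicate 2 (-0.81), nor with median-of-ratios scaling (-0.61). Pou3f3 differed between the populations by -1.96 ± 0.16 on E13.5 and -1.80 ± 0.16 on E15.5. At E11.5 its difference was -0.42 ± 0.16, a call lost without E11.5 Ebf2-EGFP- replicate 1 (-0.32), E11.5 Ebf2-EGFP+ replicate 1 (-0.44) or replicate 2 (-0.40), and with scaling (-0.16). Gm20646, 1797 bases from Pantr1, overlaps Pou3f3 on the same strand and was enriched at E15.5 alone, with 2.97 and 2.98 FPKM in Ebf2-EGFP- and 0.653 and 1.31 in Ebf2-EGFP+ libraries.

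H19 is an imprinted lncRNA, expressed from the maternal chromosome and abundant in embryonic tissues. It stood at 92.8 and 81 FPKM in the E11.5 Ebf2-EGFP- pair of libraries and 25.8 and 35 in the Ebf2-EGFP+ pair, then 13.3 and 10 against 3.25 and 1.38 on E13.5 and 8.78 and 4.92 against 0.682 and 0.580 on E15.5. In Ebf2-EGFP- cells it fell by 2.80 ± 0.32 (adjusted p 5.51e-05) between E11.5 and E13.5 and by 3.53 ± 0.32 (adjusted p 6.14e-06) between E11.5 and E15.5. In Ebf2-EGFP+ cells it fell by 4.25 ± 0.32 (adjusted p 2.09e-06) between E11.5 and E15.5. In each of these the libraries of the stages did not overlap, and both populations fell while the E11.5 ratio of 0.357 compares with 0.208 on E15.5, a difference that was not tested. Of the 4 imprinted lncRNAs listed, all in the table, H19 alone met the rule, and Meg3, Rian and Snhg14 did not. An exon of H19 holds mmu-miR-675-5p on chr7:142577112-142577133 and mmu-miR-675-3p on chr7:142577078-142577099, minus strand of GRCm38.p6 (RefSeq).
mmu-miR-675-5p: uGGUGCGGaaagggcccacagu
mmu-miR-675-3p: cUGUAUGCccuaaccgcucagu

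**Figure D2:**
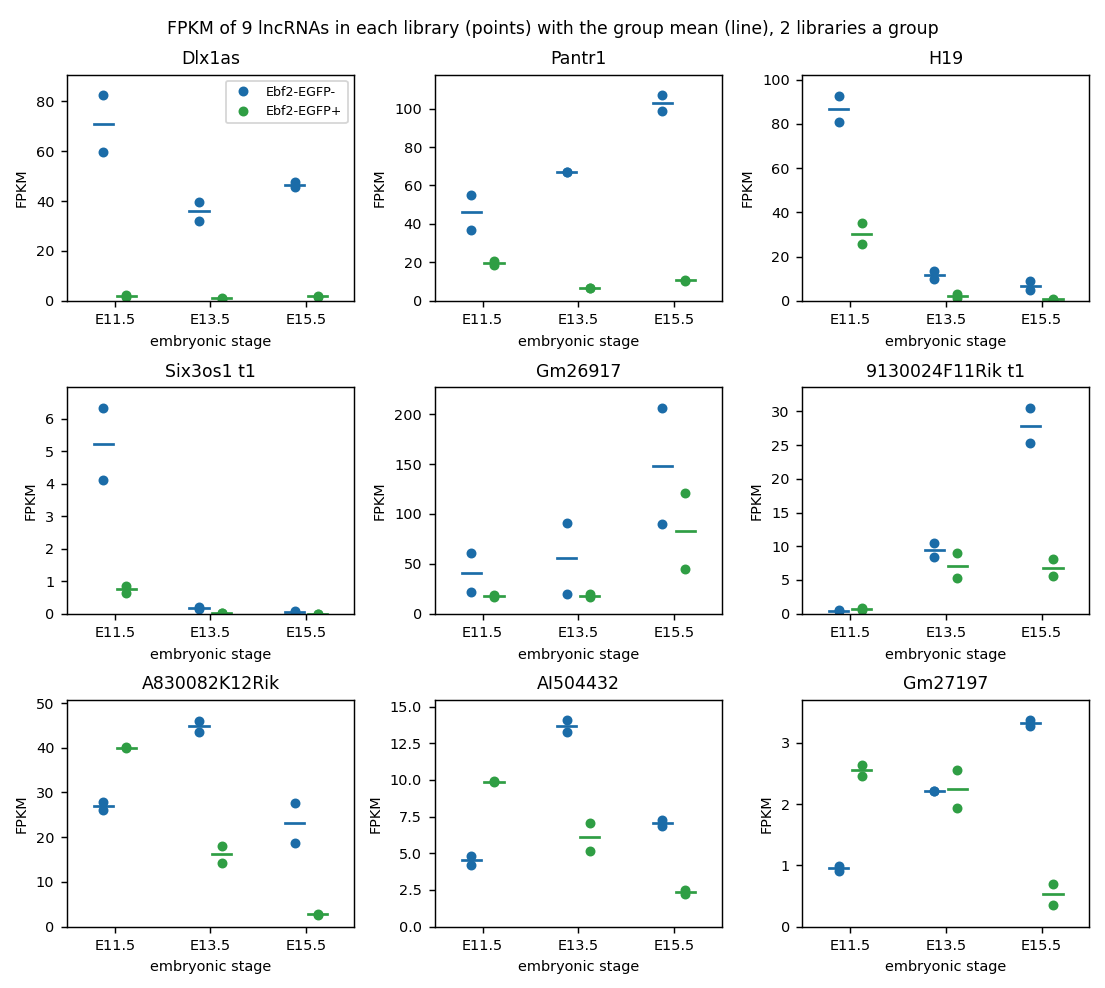
FPKM by stage of 9 of the 59 enriched transcripts in Ebf2-EGFP- and Ebf2-EGFP+ cells, each point a library and each line the mean of 2; t1 marks the more abundant transcript of a gene. Dlx1as stays apart between the populations at every stage, and A830082K12Rik and AI504432 are higher in Ebf2-EGFP+ cells on E11.5 but lower on E15.5.

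Among the 10 most abundant of the 59 in Ebf2-EGFP- cells, several are little characterised. By stage, the highest Ebf2-EGFP- mean was that of H19 at E11.5 (86.9 FPKM), Pantr1 at E13.5 (67.0 FPKM) and Gm26917 at E15.5 (148 FPKM). Gm26917, a single-exon transcript that lies 12 bases from an annotated ribosomal RNA gene on the opposite strand, had the highest mean over the Ebf2-EGFP- libraries, and its libraries differed widely within groups. Its Ebf2-EGFP- libraries stood at 60.4 and 21.8 FPKM (E11.5), 19.7 and 91.2 (E13.5), and 206 and 90.3 (E15.5), and the Ebf2-EGFP+ libraries at 19.1 and 16.3, 16.4 and 20, and 121 and 44.8. It rose between E11.5 and E15.5 by 1.88 ± 0.72 (adjusted p 0.0432) in Ebf2-EGFP- and by 2.003 ± 0.72 in Ebf2-EGFP+ cells. The Ebf2-EGFP- call was lost without E11.5 Ebf2-EGFP- replicate 2 (1.16), without E15.5 Ebf2-EGFP- replicate 1 (1.28), and without any of the 4 Ebf2-EGFP+ libraries of E11.5 and E13.5 (1.88 each). The Ebf2-EGFP+ call was lost without E11.5 Ebf2-EGFP+ replicate 1 (2.11) or replicate 2 (1.89), E13.5 Ebf2-EGFP+ replicate 1 or 2 (the same change), or E15.5 Ebf2-EGFP+ replicate 1 (1.29). Gm17750 met the ratio at E11.5 alone, with 11.8 and 9.16 FPKM in the E11.5 Ebf2-EGFP- pair of libraries and 4.63 and 4.21 in the Ebf2-EGFP+ pair, then 28.4 and 31.5 against 28.8 and 25.7 on E13.5 and 62.2 and 92.1 against 65 and 105 on E15.5. It rose by 2.75 ± 0.28 (adjusted p 1.58e-05) in Ebf2-EGFP- and by 3.95 ± 0.28 in Ebf2-EGFP+ cells between E11.5 and E15.5, with non-overlapping libraries in both.

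1190002F15Rik, now named Lockd, stood at 17.3 and 21.7 FPKM in the E11.5 Ebf2-EGFP- pair of libraries and 8.66 and 8.14 in the Ebf2-EGFP+ pair, then 46.6 and 23 against 5.33 and 2.87 on E13.5 and 15.8 and 8.53 against 2.09 and 0.925 on E15.5. It fell in Ebf2-EGFP+ cells between E11.5 and E15.5 by 1.95 ± 0.40 (adjusted p 0.00226), with both later libraries below both earlier ones. Apold1, the coding gene of the table within 50 kb of it, differed between the populations by -1.07 ± 0.15 at E11.5 and -0.66 ± 0.15 at E13.5, the latter -0.43 without E13.5 Ebf2-EGFP- replicate 2, and its E15.5 difference of -0.31 ± 0.15 was not called. 5430405H02Rik, antisense to Tgif2, had ratios of 0.414, 0.374 and 0.364, with 25.7 and 19.7 FPKM in the E11.5, 29.8 and 24.2 in the E13.5 and 16 and 14 in the E15.5 Ebf2-EGFP- libraries. Tgif2, a homeodomain repressor gene, differed by -1.39 ± 0.20, -1.53 ± 0.20 and -1.70 ± 0.20. RP23-169H9.3, now named Gm42890, overlaps Wdr77 on the same strand and stood at 20.3 and 19 FPKM in E11.5 Ebf2-EGFP- and 7.31 and 8.76 in E11.5 Ebf2-EGFP+ libraries. In Ebf2-EGFP- cells it fell between E11.5 and E15.5 by 1.09 ± 0.20, to 8.88 and 8.48 FPKM. Wdr77 differed by -1.15 ± 0.17 at E11.5 and -0.76 ± 0.17 at E13.5, and its E15.5 difference of -0.33 ± 0.17 was not called.

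Snhg4 and Snhg18 are hosts of small nucleolar RNAs, which guide chemical modification of ribosomal RNA and are released from introns. Of the 4 such hosts listed, all in the table, these 2 met the rule, and Snhg8 and Snhg14 did not. Snhg4 stood at 6.13 and 7.24 FPKM in the E11.5 Ebf2-EGFP- pair of libraries and 1.63 and 1.56 in the Ebf2-EGFP+ pair, then 6.80 and 4.64 against 4.22 and 2.83 on E13.5 and 4.42 and 3.86 against 3.49 and 4.29 on E15.5. It rose in Ebf2-EGFP+ cells between E11.5 and E15.5 by 0.91 ± 0.22, a call lost without E15.5 Ebf2-EGFP+ replicate 2 (0.79). Snhg18 starts 148 bases from Sema5a, an axon guidance gene, head to head, and stood at 4.34 and 5.72 FPKM in the E11.5 Ebf2-EGFP- pair of libraries and 1.43 and 1.55 in the Ebf2-EGFP+ pair, then 10.1 and 7.27 against 1.14 and 0.383 on E13.5 and 6.27 and 5.38 against 0.330 and 0.367 on E15.5. Sema5a differed by -2.46 ± 0.21 on E13.5 and -1.82 ± 0.21 on E15.5, and at E11.5 the difference of -0.36 ± 0.21 was not called. Among the 5 microRNA host genes listed, all in the table, 4 met the rule, and Mir17hg did not. E530001K10Rik, now named Mir670hg, stood at 11.1 and 8.01 FPKM in Ebf2-EGFP- and 2.78 and 2.05 in Ebf2-EGFP+ libraries at E11.5. An intron of it holds mmu-miR-670-5p on chr2:94261358-94261379 and mmu-miR-670-3p on chr2:94261316-94261340, minus strand of GRCm38.p6. Dleu2 stood at 0.480 and 2.62 FPKM in E11.5 Ebf2-EGFP- libraries, with a ratio of 0.465, and left the selection without E11.5 Ebf2-EGFP- replicate 2 or without E11.5 Ebf2-EGFP+ replicate 1. The Dleu2 gene holds mmu-miR-15a-5p on chr14:61632075-61632096 and mmu-miR-16-5p on chr14:61631936-61631957, minus strand, which share their seed and lie outside the measured transcript.
mmu-miR-670-5p: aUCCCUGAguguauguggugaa
mmu-miR-670-3p: uUUCCUCAuauccauucaggagugu
mmu-miR-15a-5p: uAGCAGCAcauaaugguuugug
mmu-miR-16-5p: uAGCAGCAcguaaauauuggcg

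Several transcripts were enriched at E11.5 and close to absent later, and they entered the selection through their E11.5 Ebf2-EGFP- values alone, so their falls are in large part built in. The more abundant transcript of Six3os1, antisense to the forebrain homeobox gene Six3, stood at 4.11 and 6.32 FPKM in Ebf2-EGFP- and 0.636 and 0.853 in Ebf2-EGFP+ libraries at E11.5. At E13.5 and E15.5 its Ebf2-EGFP- libraries were at 0.221 and 0.140, and 0.0294 and 0.0842 FPKM. It fell in Ebf2-EGFP- cells between E11.5 and E15.5 by 2.53 ± 0.16, and the other transcript by 2.04 ± 0.13. Six3 differed between the populations by -1.62 ± 0.13 at E11.5 and by -0.45 ± 0.13 at E13.5, the latter a call lost without E13.5 Ebf2-EGFP- replicate 1 (-0.30) or E13.5 Ebf2-EGFP+ replicate 2 (-0.43), and its E15.5 difference of -0.21 ± 0.13 was not called. AI606473 starts 162 bases from Lhx8, a LIM homeobox gene of ventral forebrain neurons, head to head. It stood at 3.84 and 4.70 FPKM in Ebf2-EGFP- and 0.0239 and 0.569 in Ebf2-EGFP+ libraries at E11.5, and no later library exceeded 0.0318 FPKM. AI606473 fell in Ebf2-EGFP- cells by 2.39 ± 0.17 between E11.5 and E15.5. Lhx8 had 14.5 and 16.5 FPKM in Ebf2-EGFP- and 0.372 and 1.08 in Ebf2-EGFP+ libraries at E11.5, a difference of -3.29 ± 0.17, and like AI606473 it was close to 0 later. For such low transcripts the pseudocount of 1 compresses changes between stages. The promoter region of AI606473 at chr3:154330571-154330870, plus strand of GRCm38.p6, holds ACAAAG, a core match of SOX proteins, in capitals.
AI606473: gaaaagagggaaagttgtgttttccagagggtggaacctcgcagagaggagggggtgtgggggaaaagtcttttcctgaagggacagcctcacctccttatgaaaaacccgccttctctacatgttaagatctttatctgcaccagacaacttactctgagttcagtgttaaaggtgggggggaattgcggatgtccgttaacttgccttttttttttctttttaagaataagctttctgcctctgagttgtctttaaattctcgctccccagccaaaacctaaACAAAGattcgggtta

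Gm29478 and 2610035F20Rik, picked after their values were seen, share this early pattern, with falls built in likewise, and lie near Zic genes, zinc finger factors of the medial and dorsal forebrain. Gm29478 stood at 2.86 and 5.65 FPKM in Ebf2-EGFP- and 0.597 and 0.491 in Ebf2-EGFP+ libraries at E11.5 and was listed at 0 in all 4 Ebf2-EGFP- libraries of E13.5 and E15.5. It fell in Ebf2-EGFP- cells by 2.34 ± 0.20 between E11.5 and E15.5. 2610035F20Rik starts 1856 bases from Zic2 and fell by 1.88 ± 0.13, from 2.68 and 3.37 to 0.0931 and 0.0826 FPKM. At E11.5, when both lncRNAs met the ratio, Gm5089, a coding gene 19169 bases from 2610035F20Rik, differed by -2.15 ± 0.27, Zic4 by -0.67 ± 0.21 and Zic5 by -0.69 ± 0.27, while the Zic2 difference of -0.14 ± 0.26 and the Zic1 difference of -0.50 ± 0.29 were not called. The calls of Zic4 and Zic5 were lost without E11.5 Ebf2-EGFP- replicate 2 (-0.49 and -0.50), without E11.5 Ebf2-EGFP+ replicate 1 (-0.55 and -0.56) and with scaling (-0.44 and -0.46), and with 0.1 added before logs. At E15.5, Zic1 was higher in Ebf2-EGFP+ cells by 1.81 ± 0.29, Zic2 by 2.30 ± 0.26, Zic4 by 0.91 ± 0.21 and Zic5 by 1.31 ± 0.27, and Gm5089 was not called (0.02 ± 0.27). Zic2 stood at 4.16 and 2.09 FPKM in Ebf2-EGFP- and 16 and 21.7 in Ebf2-EGFP+ libraries at E15.5.

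The largest rise among the 59 in Ebf2-EGFP- cells was that of 9130024F11Rik. Its more abundant transcript stood at 0.388 and 0.509 FPKM in the E11.5 Ebf2-EGFP- pair of libraries and 0.477 and 0.910 in the Ebf2-EGFP+ pair, then 8.34 and 10.5 against 8.95 and 5.33 on E13.5 and 25.3 and 30.5 against 5.62 and 8.07 on E15.5. It rose between E11.5 and E15.5 by 4.31 ± 0.27 in Ebf2-EGFP- and by 2.21 ± 0.27 (adjusted p 4.63e-05) in Ebf2-EGFP+ cells, with non-overlapping libraries in both. The other transcript rose by 3.81 ± 0.23 and 2.23 ± 0.23 (adjusted p 1.66e-05). Both met the ratio at E15.5 alone, at 0.272 and 0.314, so part of the rise in Ebf2-EGFP- cells is built in, as it is for the transcripts that follow. Gm29260, picked after its values were seen, rose in Ebf2-EGFP- cells by 2.17 ± 0.20 from 1.16 and 1.77 to 10.7 and 9.32 FPKM, while its Ebf2-EGFP+ libraries stood at 0.616 and 0.861 and then 0.481 and 0.515 FPKM. RP23-253I14.3, chosen in the same way, rose in Ebf2-EGFP- cells by 2.08 ± 0.20 and lies antisense to Rasgef1b.

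For 6 transcripts the Ebf2-EGFP+ pair at E11.5 exceeded the Ebf2-EGFP- pair, before the ratio was met at a later stage: A830082K12Rik, AI504432, Gm27197, A930024E05Rik, RP23-253I14.3 and 1110015O18Rik. Among all 200 lncRNAs 98 had this order at E11.5. 4933404O12Rik was the reverse case, enriched at E11.5 and higher in both Ebf2-EGFP+ libraries at E15.5. A830082K12Rik starts 19 bases from Nr2f1, a nuclear receptor gene of cortical area patterning, and stood at 28 and 26.1 FPKM in the E11.5 Ebf2-EGFP- pair of libraries and 40 and 40.1 in the Ebf2-EGFP+ pair, then 43.6 and 46.1 against 18.1 and 14.2 on E13.5 and 27.6 and 18.8 against 2.61 and 2.84 on E15.5. In Ebf2-EGFP+ cells it fell between E11.5 and E15.5 by 3.46 ± 0.23. Nr2f1 differed by -1.40 ± 0.20 on E13.5 and -1.91 ± 0.20 on E15.5, and its E11.5 difference of 0.36 ± 0.20 was not called. A930024E05Rik stood at 0.685 and 0.719 FPKM in the E11.5 Ebf2-EGFP- pair of libraries and 1.73 and 2.57 in the Ebf2-EGFP+ pair, then 9.48 and 9.07 against 5.63 and 4.88 on E13.5 and 12.2 and 9.70 against 2.68 and 1.99 on E15.5. It rose in Ebf2-EGFP- cells between E11.5 and E15.5 by 2.80 ± 0.20. Orai1, 16729 bases from it, was called at no stage, with differences of 0.26 ± 0.23, -0.47 ± 0.23 and -0.55 ± 0.23. AI504432 and Gm27197 were picked after their values were seen. AI504432 stood at 4.21 and 4.82 FPKM in the E11.5 Ebf2-EGFP- pair of libraries and 9.86 and 9.92 in the Ebf2-EGFP+ pair, then 14.1 and 13.2 against 7.08 and 5.14 on E13.5 and 6.83 and 7.28 against 2.21 and 2.46 on E15.5. It rose in Ebf2-EGFP- cells between E11.5 and E13.5 by 1.41 ± 0.19 and fell in Ebf2-EGFP+ cells between E11.5 and E15.5 by 1.71 ± 0.19. Kcna3, a potassium channel gene 1434 bases away on the same strand, had differences of 0.84 ± 0.18 on E11.5, -1.14 ± 0.18 on E13.5 and -1.15 ± 0.18 on E15.5, so its sign turned as well. Gm27197, antisense to the LIM homeobox gene Lhx2, rose in Ebf2-EGFP- cells by 1.15 ± 0.17 and fell in Ebf2-EGFP+ cells by 1.23 ± 0.17 between E11.5 and E15.5. Lhx2 was higher in Ebf2-EGFP+ cells on E11.5 by 0.56 ± 0.23, and differed by -0.67 ± 0.23 on E13.5 and -1.50 ± 0.23 on E15.5. The E11.5 call was lost without E11.5 Ebf2-EGFP- replicate 1 (0.59) or 2 (0.53) or E11.5 Ebf2-EGFP+ replicate 1 (0.51) or 2 (0.61), and the E13.5 call without E13.5 Ebf2-EGFP- replicate 1 (-0.56) or E13.5 Ebf2-EGFP+ replicate 2 (-0.58) and with scaling (-0.36). Whether the population difference changed between stages was not tested for any of these.

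Across all 59, changes between stages in Ebf2-EGFP- cells leaned downward. Between E11.5 and E13.5, 13 rose (21.5% of all 200 lncRNAs) and 21 fell (18% of all 200). Between E13.5 and E15.5, 3 rose (18% of all 200) and 14 fell (12% of all 200). Between E11.5 and E15.5, 12 rose (37% of all 200) and 28 fell (25% of all 200). The median log2 change of the 59 was -0.22, -0.32 and -0.58 over these intervals, against 0.05, 0.12 and 0.31 for all 200. Of the 141 lncRNAs outside the rule, 62 rose and 22 fell between E11.5 and E15.5. In Ebf2-EGFP+ cells, 5 of the 59 rose (26% of all 200) and 23 fell (25% of all 200) between E11.5 and E15.5, with a median of -0.35 against -0.07 for all 200. The rule asks for a level above 1 FPKM in Ebf2-EGFP- cells at a stage where the ratio is met, so the direction of change and the selection are not independent.

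The counts for E13.5 to E15.5 rest on single libraries. Without E13.5 Ebf2-EGFP- replicate 1, 5 of the 59 were called and 3 fell, and without E15.5 Ebf2-EGFP- replicate 2, 8 were called and 6 fell, in place of 17 and 14. The number that rose, 3, was 6 without E11.5 Ebf2-EGFP- replicate 1 or 2 and 5 without E13.5 Ebf2-EGFP- replicate 2. With median-of-ratios scaling 6 rose and 13 fell, where 20% of all 200 rose and 10% fell. In Ebf2-EGFP+ cells between E11.5 and E15.5, 28 were called, but 15 without E11.5 Ebf2-EGFP+ replicate 2. The 23 that fell became 11 without that library and 15 without E15.5 Ebf2-EGFP+ replicate 1 or replicate 2. Scaling moved the median log2 change of all 200 lncRNAs by 0.16 in Ebf2-EGFP- and by 0.15 in Ebf2-EGFP+ cells between E11.5 and E15.5. With it, 13 of the 59 rose and 23 fell in Ebf2-EGFP- cells over that interval, where 45% of all 200 rose and 19.5% fell.

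Counts by combination of stages are tied to the rule, since the same Ebf2-EGFP- values define the combinations, so a fall after early and a rise before late enrichment is in large part built in. Between E11.5 and E15.5 in Ebf2-EGFP- cells, 12 of the 14 transcripts enriched at E11.5 alone fell (25% of all 200) and 1 rose (37% of all 200), with a median log2 change of -1.63. Of the 9 enriched at E11.5 and E13.5, 7 fell and 1 rose (median -1.15). Of the 8 enriched at E15.5 alone, 5 rose (median 1.62), and of the 6 enriched at E13.5 and E15.5, 3 rose and 1 fell (median 0.40). Of the 4 enriched at E13.5 alone, 1 rose and 1 fell. Among the 17 enriched at all 3 stages, 1 rose and 6 fell in Ebf2-EGFP- cells between E11.5 and E15.5, with a median of -0.56. Of these 17, 8 were called between E11.5 and E13.5 (79 of all 200 lncRNAs), but 5 without E13.5 Ebf2-EGFP- replicate 1. Between E13.5 and E15.5, 3 of the 17 were called (60 of all 200), 5 without E11.5 Ebf2-EGFP- replicate 1 or 2, 1 without E15.5 Ebf2-EGFP- replicate 2, and 0 in limma without E13.5 Ebf2-EGFP- replicate 1, where 2 had an unadjusted p under 0.05. In Ebf2-EGFP+ cells 8 of the 17 fell (25% of all 200), and 3, 5 and 4 were called without E11.5 Ebf2-EGFP+ replicate 2, E15.5 Ebf2-EGFP+ replicate 1 and E15.5 Ebf2-EGFP+ replicate 2.

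Read in both populations between E11.5 and E15.5, 13 of the 59 fell in both (23 of all 200 lncRNAs) and 4 rose in both (31 of all 200). The 4 that rose in both were Gm17750, Gm26917 and both transcripts of 9130024F11Rik. AI504432, Gm27197 and Pantr1 rose in Ebf2-EGFP- and fell in Ebf2-EGFP+ cells (6 of all 200). Snhg4 fell in Ebf2-EGFP- and rose in Ebf2-EGFP+ cells (3 of all 200). A change was called in Ebf2-EGFP- cells alone for 19 (30.5% of all 200), in Ebf2-EGFP+ cells alone for 7 (19.5%) and in neither for 12 (18.5%). A call in a single population is not a tested difference between populations. For 13 of the 59 no interval was called in Ebf2-EGFP- cells, as for 60 of all 200. Several of these calls rest on single libraries. For Gm26917 they were lost, among other cases, without E11.5 Ebf2-EGFP- replicate 2 (1.16), E15.5 Ebf2-EGFP- replicate 1 (1.28) and E15.5 Ebf2-EGFP+ replicate 1 (1.29). The fall of Pantr1 was lost without E11.5 Ebf2-EGFP+ replicate 1 (-0.76) or 2 (-0.91) or E15.5 Ebf2-EGFP+ replicate 2 (-0.81), and the rise of Snhg4 without E15.5 Ebf2-EGFP+ replicate 2 (0.79). The Snhg4 change of -0.58 was -0.68 and -0.48 without E11.5 Ebf2-EGFP- replicates 1 and 2, and -0.66 and -0.50 without E15.5 Ebf2-EGFP- replicates 1 and 2; it was also lost, at -0.58, without any of the 4 Ebf2-EGFP+ libraries of E11.5 and E15.5. AI504432 rose over the whole interval by 0.55, a call lost without E11.5 Ebf2-EGFP- replicate 1 (0.47) or 2 (0.63) or E15.5 Ebf2-EGFP- replicate 1 (0.59) or 2 (0.51).

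**Figure D3:**
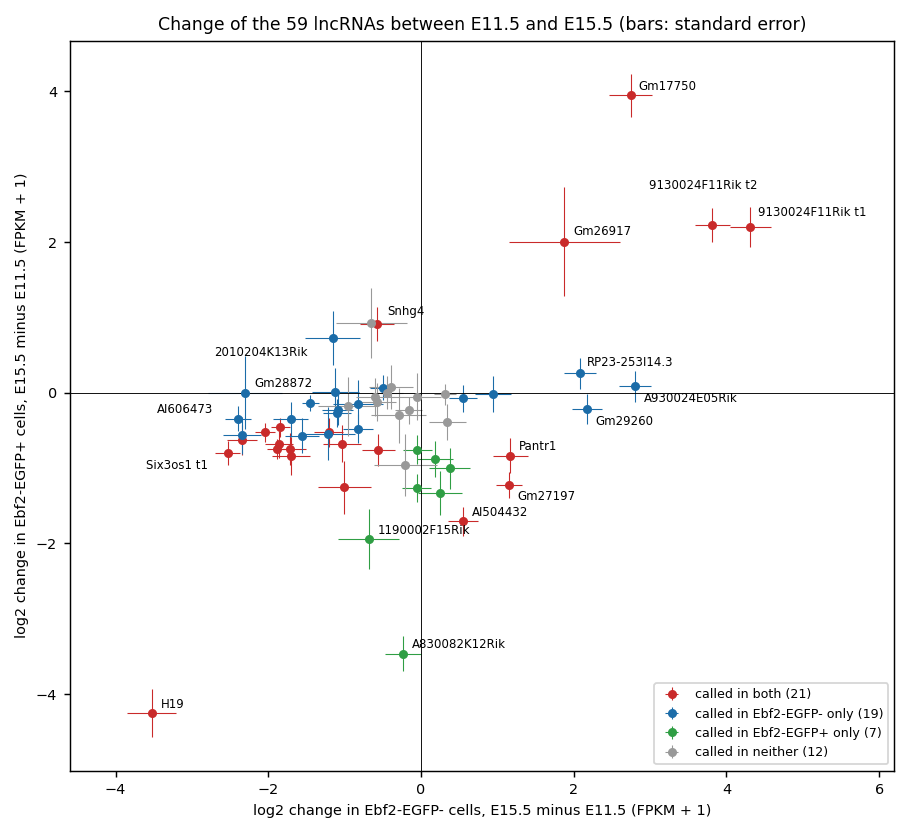
Log2 change in FPKM plus 1 between E11.5 and E15.5 of the 59 enriched transcripts in Ebf2-EGFP- cells (horizontal) and in Ebf2-EGFP+ cells (vertical), points with standard errors, coloured by where the change was called. H19 lies farthest left and farthest down, at -3.53 and -4.25, and 9130024F11Rik farthest right.

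Coding genes within 50 kb of the enriched transcripts number 126, and 50 of these are among the 4859 genes of the coding table. The authors selected those 4859 from these same libraries as differing between the populations. A call on them is therefore no independent evidence of a population difference, and neighbours outside that selection were not counted. They lie near 45 of the 59 transcripts, and 26 of the 50 overlap the transcript they are near. At E11.5, 32 of the 50 were lower in Ebf2-EGFP+ cells (44.9% of all 4859 coding genes) and 8 higher (36.8%). At E13.5, 33 were lower (43.5%) and 5 higher (32.1%), and at E15.5, 31 were lower (31.6%) and 6 higher (25.8%). The number called higher at E13.5, 5, was smaller whichever 1 of the 12 libraries was left out, also for libraries of the other stages. The median log2 difference of the 50 was -1.07, -0.93 and -0.74, against -0.19, -0.19 and -0.11 for all coding genes of the table. The 132 coding genes near the other lncRNAs had medians of 0.82, 0.50 and 0.24, and 37, 37 and 23 of them were lower. Neighbours and selection are linked where reads overlap, so genes that do not overlap the transcript were also counted, a choice made after seeing the data: 14, 13 and 13 of these 24 were lower. Scaling moved the median of all coding genes by 0.23, 0.26 and 0.18, and with it 29, 31 and 29 of the 50 were lower (40.8%, 36.1% and 27.2% of all coding genes) and 9, 7 and 9 higher (40.5%, 39.1% and 32.9%).

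Neighbours were also counted by whether the lncRNA met the ratio at the stage itself; the counts were not tested against each other, and overlapping genes may share reads with the lncRNA. At E11.5, 30 of the 39 genes near a transcript that met the ratio at that stage were lower, and 2 of the 11 near transcripts that did not (44.9% of all coding genes). At E13.5 these counts were 23 of 27 and 10 of 23 (43.5% of all), and at E15.5 21 of 24 and 10 of 26 (31.6% of all). Among genes without overlap near a transcript that met the ratio, 13 of 19, 10 of 14 and 10 of 13 were lower. Lower levels at all 3 stages were called for 21 of the 50, or 42%, against 21.8% of all coding genes. Meis2, Sertad4, Plch2 and Mef2d were picked after their values were seen. Meis2, 379 bases from 2700033N17Rik, which met the ratio from E13.5, differed by 0.08 ± 0.13 at E11.5, which was not called, and by -1.19 ± 0.13 and -1.28 ± 0.13 later. Sertad4 overlaps Gm15867, which met the ratio at E13.5 alone, and was higher in the Ebf2-EGFP+ population at E11.5 by 1.35 ± 0.16, and differed by -1.16 ± 0.16 at E13.5, with no call at E15.5. Others went against the lncRNA, since on E11.5 Plch2, 21437 bases from Gm20421, was higher in the Ebf2-EGFP+ population by 2.64 ± 0.24, and Mef2d, near AI849053 and AW047730, by 0.94 ± 0.14. Whether a lncRNA acts on its neighbour was not tested.

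**Figure D4:**
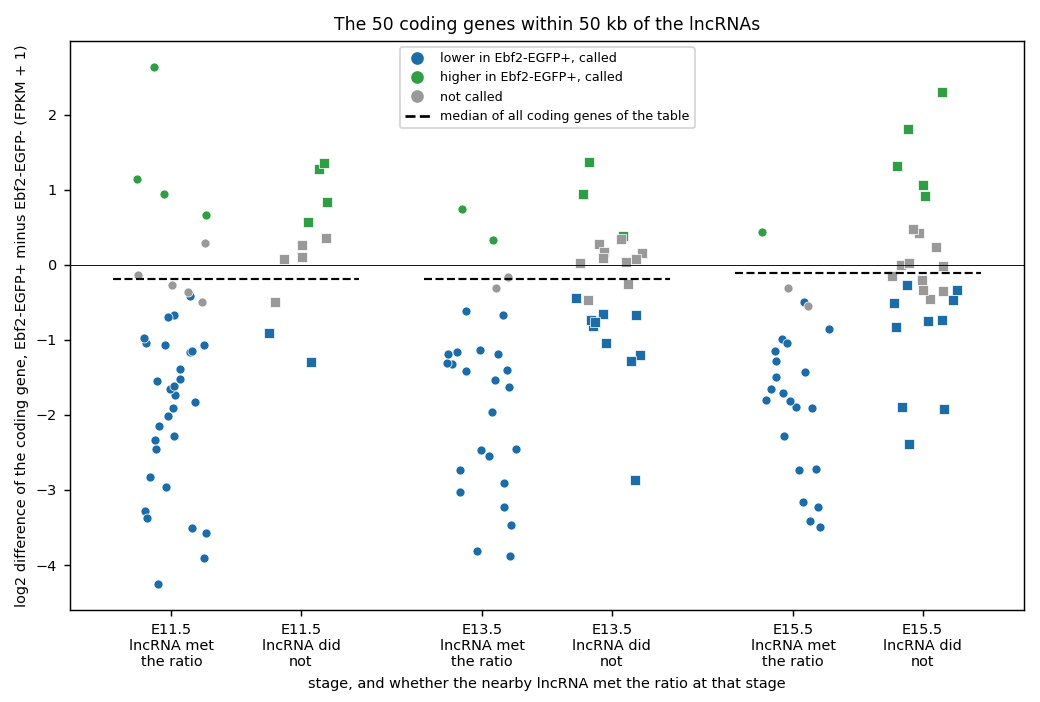
Log2 difference, Ebf2-EGFP+ minus Ebf2-EGFP-, of the 50 coding genes within 50 kb of an enriched transcript at each stage. Genes are split by whether the nearby lncRNA met the ratio at that stage. Each point is a gene, and the dashed line is the median of all 4859 coding genes that the authors selected as differential. Genes near transcripts that met the ratio lie mostly under the dashed line.

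Some transcripts cannot be measured separately. Of the words of 31 bases in the shorter Gm3892 transcript, 83.9% occur in Gm17167, and of those in the longer 50.8%, so reads can be shared between them. The coding gene Gm3893 lies 1841 and 1499 bases from these transcripts. No other pair of the 59 from different genes shared more than 3.27% of its words. Gm14230 and 5430405H02Rik lie 12610 bases apart on the same strand at Tgif2, and AI849053 and AW047730 overlap on opposite strands.

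Promoter regions were searched for 6 short motifs on both strands, and a match is a description, not evidence of binding. TAATTA occurred in 4 of 58 promoter regions of the enriched transcripts (6.90%), in 6.52% of those of the other lncRNAs and in 5.31% of the promoters of all 27025 RefSeq genes. Besides Dlx1as, Gm13111 and Gm27202, the 4 include Gm26917. ACAAAG occurred in 9 of 58 (15.52%), against 17.4% and 18.7%. The E-box CAGCTG was in 5.17%, against 11.6% and 16.1%, and the CCAAT box in 29.3%, against 36.2% and 37.9%. The GC box GGGCGG was in 43.1%, against 47.8% and 35.9%, and the TATA core TATAAA in 10.3%, against 11.6% and 14.2%. The median count of CpG was 11 per promoter region, against 13 and 7, and the median GC content 55.8%, against 56.8% and 52.7%. All promoter counts use RefSeq and GENCODE start sites on GRCm38.p6.

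The other marker lists describe which cells could contribute RNA to each population, and their part in the result was not tested. Here too the most abundant gene is named over all 12 libraries, and others led in some groups. In Ebf2-EGFP- cells Neurog2 exceeded Eomes at E11.5 (means 21.5 and 9.87 FPKM) and E13.5 (125 and 103). In the same cells Fezf2 exceeded Neurod6 at E11.5 (28.1 and 1.16), and Lhx6 exceeded Dlx2 at E15.5 (31.9 and 13.8). Cell cycle genes (6 of 6 in the table, Pcna the most abundant) summed to 955 and 836 FPKM in Ebf2-EGFP- against 249 and 227 in Ebf2-EGFP+ libraries of E11.5, to 703 and 433 against 135 and 92.5 on E13.5 and to 210 and 132 against 52.4 and 54.9 on E15.5. Intermediate progenitor genes (5 of 5 in the table, Eomes the most abundant) summed to 68.3 and 73.9 FPKM in Ebf2-EGFP- against 250 and 231 in Ebf2-EGFP+ libraries of E11.5, to 380 and 284 against 132 and 95.7 on E13.5 and to 254 and 145 against 38.5 and 22.2 on E15.5. Cortical plate genes (6 of 6 in the table, Neurod6 the most abundant) summed to 56.9 and 59.2 FPKM in Ebf2-EGFP- against 145 and 189 in Ebf2-EGFP+ libraries of E11.5, to 363 and 460 against 753 and 749 on E13.5 and to 621 and 543 against 806 and 569 on E15.5. Genes of the ganglionic eminence and interneurons (10 of 10 in the table, Dlx2 the most abundant) summed to 215 and 275 FPKM in Ebf2-EGFP- against 14.8 and 18.1 in Ebf2-EGFP+ libraries of E11.5, to 67.7 and 65.3 against 5.17 and 3.52 on E13.5 and to 94.6 and 80.5 against 4.22 and 4.52 on E15.5. At E13.5, 2 genes of this last list were at 0 in Ebf2-EGFP+ replicate 1, and at E15.5, 1 and 2 were at 0 in the Ebf2-EGFP+ replicates. In limma, all 8 radial glia and all 6 cell cycle genes were lower in the Ebf2-EGFP+ population at each stage, as were 10, 9 and 8 of the 10 ganglionic eminence genes at the 3 stages. Of the 9 Cajal-Retzius genes 8, 8 and 9 were higher. Of all coding genes of the table, 44.9%, 43.5% and 31.6% were lower and 36.8%, 32.1% and 25.8% higher. The authors had selected these genes as differing between the populations. Of the intermediate progenitor genes 2 were higher at E11.5 and all 5 lower at each later stage, and of the cortical plate genes 3, 5 and 4 were higher and 1 lower at E15.5.

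Lists for cells from outside the neural lineage were also summed. Markers that are not among the coding genes the authors selected as differential are absent from these sums. The gene named is again the most abundant over all 12 libraries, and others led in some groups. In Ebf2-EGFP- libraries of E13.5 the erythroid gene Alas2 stood at 8.39 and 7.23 FPKM and Hbb-y at 4.07 and 3.30. In those of E15.5 Alas2 stood at 5.63 and 23.0 FPKM and Hbb-y at 0.0854 and 0.123. Endothelial genes (3 of 6 in the table, Cldn5 the most abundant) summed to 7.19 and 4.39 FPKM in Ebf2-EGFP- against 0.322 and 0.536 in Ebf2-EGFP+ libraries of E11.5, to 1.77 and 2.94 against 2.32 and 0.692 on E13.5 and to 2.14 and 2.64 against 0.483 and 0.601 on E15.5. Of the microglia list (1 of 6 in the table, Aif1 the most abundant), the gene in the table amounted to 0.131 and 0.162 FPKM in Ebf2-EGFP- against 0.272 and 0.359 in Ebf2-EGFP+ libraries of E11.5, to 0.111 and 0.188 against 0.933 and 0.673 on E13.5 and to 0.626 and 0.773 against 2.92 and 2.87 on E15.5. Erythroid genes (4 of 6 in the table, Hbb-y the most abundant) summed to 1306 and 2752 FPKM in Ebf2-EGFP- against 97.1 and 32.9 in Ebf2-EGFP+ libraries of E11.5, to 13.8 and 12.6 against 4.96 and 2.86 on E13.5 and to 5.81 and 23.2 against 0.3002 and 0.436 on E15.5, and at E15.5 1 of them was at 0 in each Ebf2-EGFP- and 3 in each Ebf2-EGFP+ library. Meningeal genes (8 of 8 in the table, Col3a1 the most abundant) summed to 137 and 116 FPKM in Ebf2-EGFP- against 43.1 and 48.8 in Ebf2-EGFP+ libraries of E11.5, to 11.8 and 9.98 against 2.02 and 1.53 on E13.5 and to 7.35 and 8.49 against 2.63 and 7.09 on E15.5. On E11.5, limma called lower in Ebf2-EGFP+ cells 3 endothelial, 4 erythroid and 8 meningeal genes (44.9% of all coding genes), on E13.5 0, 1 and 4 (43.5% of all) and on E15.5 1, 1 and 2 (31.6% of all). Of the endothelial genes, 0 had an unadjusted p under 0.05 on E13.5. The microglia gene Aif1 was higher in Ebf2-EGFP+ cells at E13.5 and E15.5.

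**Figure D5:**
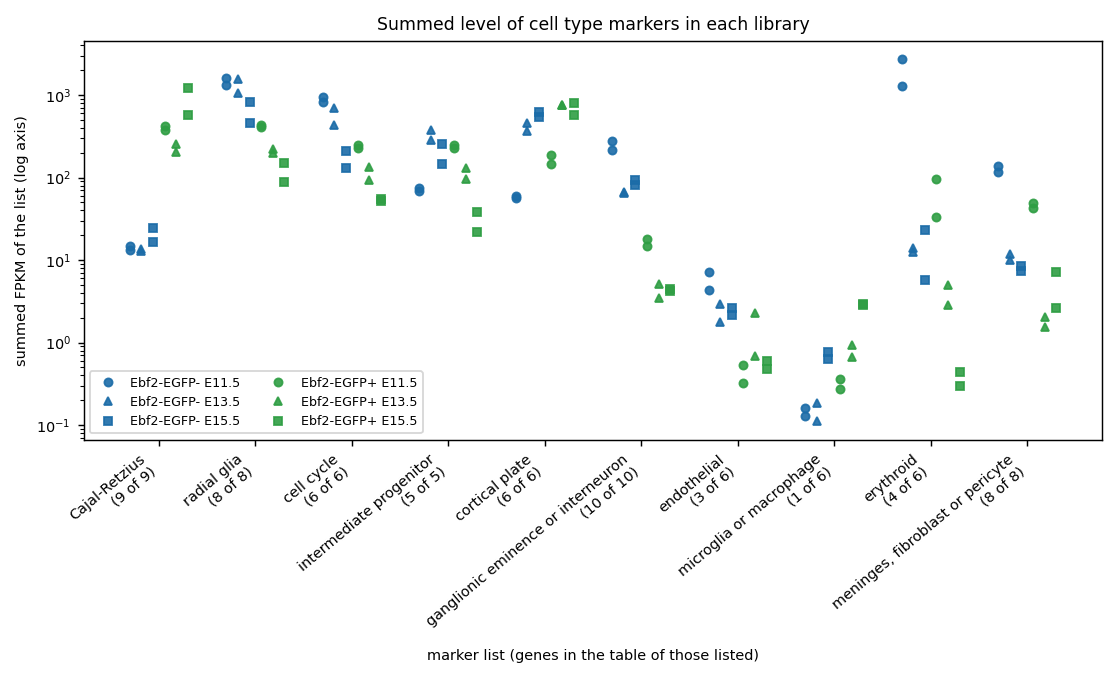
Summed FPKM (log axis) of 10 marker lists in each of the 12 libraries, by stage and population; each point is a library. The radial glia, cell cycle and ganglionic eminence lists are higher in the Ebf2-EGFP- pair at every stage, and the Cajal-Retzius list is higher in the Ebf2-EGFP+ pair.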

How the data were processed

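The authors deposited FPKM for each library, computed with Cufflinks 2.2.0 after alignment to mm10 with TopHat2 2.0.8b, and these values were used as given. The tables also hold the authors' fold, p and q values for each population comparison, which were not used here. Read counts are not part of the tables, so the depth of each library is not known here; the study's methods give only an average. The other data types of the study were not analysed here.

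Tests used limma 3.58.1 in R 4.3.3 on log2(FPKM+1), with 6 groups, a mean-variance trend and two-sided p-values adjusted by Benjamini and Hochberg within each table and contrast. With 2 libraries against 2, an exact permutation test cannot go below 0.333, which is why the spread was pooled across transcripts. The fits were first tried on simulated data with known changes. Tables and figures used Python 3.11.15, pandas 2.3.3, numpy 2.4.6 and matplotlib 3.10.9, and positions came from GENCODE M21 and RefSeq on GRCm38.p6, where the authors used GENCODE M6. Deviations of same-numbered libraries of both populations from their group means correlated across coding genes at 0.431, 0.534 and 0.431 at the 3 stages, so replicate numbers were taken as pairs in an alternative fit with a replicate block.

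The transcripts, lists and rules were chosen with earlier results of these data known. Genes were named by a rule: the 10 most abundant enriched transcripts in Ebf2-EGFP- cells, the 3 largest called changes each way between E11.5 and E15.5 in each population, those in the lists of transcription factor neighbours, small nucleolar RNA hosts, imprinted lncRNAs and microRNA hosts, the 3 nearest to each side of the ratio limit, coding genes within 50 kb of these, and the marker genes. Of the 8 lncRNAs listed beside transcription factor genes, all in the table, 5 met the rule, and Emx2os, Lhx1os and Bach2os did not. Alternatives were 0.1 in place of 1 added before logs, median-of-ratios scaling, a mean of at least 1 FPKM, moderation without trend, the replicate block, leaving out each library, windows of 10 and 200 kb, and for the selection 0.1 added, scaling, an Ebf2-EGFP- mean above 5 FPKM, and the limit applied to each library. Another gene, part of the totals, is not reported here.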

Additional observations from a re-analysis of the deposited data

Results flagged for a closer look

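Between E11.5 and E15.5, both libraries of each population moved in opposite directions for 7 of the 59 enriched transcripts, as for 29 of all 200 lncRNAs. The log2 change in Ebf2-EGFP- minus that in Ebf2-EGFP+ cells was 2.003 for Pantr1, 2.26 for AI504432, 2.37 for Gm27197, 2.38 for Gm29260 and 0.739 for Gm15658, which were higher at E15.5 in Ebf2-EGFP- cells and lower in Ebf2-EGFP+ cells. It was -1.49 for Snhg4 and -1.88 for 2010204K13Rik, which moved the other way. After median-of-ratios scaling all but Gm15658 still moved in opposite directions. The difference was not tested.

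The order of the populations was reversed between stages, without overlap of the libraries at either, for 7 of the 59 transcripts, as for 42 of all 200 lncRNAs. The log2 ratio of Ebf2-EGFP+ to Ebf2-EGFP- means was higher at E11.5 than at E15.5 by 3.25 for A830082K12Rik, 2.73 for A930024E05Rik, 2.36 for Gm27197, 2.25 for AI504432 and 1.81 for RP23-253I14.3. For 1110015O18Rik it was higher at E11.5 than at E13.5 by 1.87, and for 4933404O12Rik it was higher at E15.5 than at E13.5 by 0.760. After scaling the count was 9 of the 59 and 44 of all 200, with the same 7 transcripts, Gm17750 and 1 transcript of 9130024F11Rik. The difference was not tested.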

How the results depend on the processing

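Of 161 changes and differences of single genes, 116 stayed called in every alternative run for them; the filter on a mean of at least 1 FPKM gave no value for 16 of the 161. Over 2721 alternative values, 2530 kept direction and call, 191 kept direction but lost the call, and none reversed.

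With median-of-ratios scaling, 6 of the enriched transcripts rose between E13.5 and E15.5 in Ebf2-EGFP- cells in place of 3, and the cause was not tested. The selection gave 35 transcripts in place of 59 with an Ebf2-EGFP- mean above 5 FPKM, since fewer lncRNAs reach that level. It gave 78 with 0.1 added to both means, 50 with scaling and 47 with the limit applied to each library, and 57 to 62 without 1 library. With a window of 200 kb, which takes in more genes, 84 coding neighbours were called at some stage, 54 and 51 were lower at E11.5 and E13.5, and 17, 12 and 12 higher at the 3 stages. With 10 kb, 2 were higher at E13.5 and 3 at E15.5. Without overlapping genes, chosen after seeing the data, 23 were called, 14, 13 and 13 were lower, and 3 were higher at E11.5 and 3 at E13.5, from fewer genes.

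Without 1 library at a time, where the lone sample of a group is assumed to vary like the other groups, the enriched transcripts called in Ebf2-EGFP- cells numbered 26 to 32 between E11.5 and E13.5 (9 to 13 rose, 17 to 20 fell), 5 to 21 between E13.5 and E15.5 (2 to 6 rose, 3 to 15 fell) and 31 to 41 between E11.5 and E15.5 (9 to 12 rose, 21 to 29 fell). In Ebf2-EGFP+ cells they numbered 15 to 30 (4 to 6 rose, 11 to 25 fell). Of those enriched at all 3 stages, 5 to 8, 0 to 5, 6 to 8 and 3 to 9 were called in these comparisons. Coding neighbours called at some stage numbered 48 to 50, with 29 to 32, 29 to 34 and 25 to 32 lower and 7 to 8, 1 to 4 and 5 to 6 higher at the 3 stages.

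With 2 libraries per group and no read counts, small changes of transcripts under 1 FPKM could not be resolved, and log2 values of such transcripts depend on the constant added.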
